A study of Mus musculus with 14 samples.

Results

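Mammary tumors of *Lats2*-CKO PyMT mice were compared with tumors of WT-PyMT littermates by bulk RNA-seq, over all 17702 genes that were counted. The comparison took every library that the labels placed in the *Lats2* experiment, 4 *Lats2*-CKO PyMT tumors (numbers 1, 7, 8 and 16) and 3 WT-PyMT tumors (numbers 1, 2 and 14), which made 7 of the 14 libraries of the series. All 7 tumors carried the polyoma middle T antigen (PyMT), a viral oncoprotein expressed from the mouse mammary tumor virus (MMTV) promoter. In the *Lats2*-CKO mice an MMTV-driven Cre recombinase removed exon 5 of *Lats2*, a deletion that the paper describes as mammary-specific. Which blood vessel, immune and fat cells of the same tumor kept the gene was not tested here. Reads from the remaining exons were still counted. WT-PyMT tumors came from littermates without the deletion. Each library came from the tumor of a different mouse, and tumors were taken at about 3 months of age. By their histology labels, WT-PyMT 1 and *Lats2*-CKO 1, 8 and 16 were carcinomas, while WT-PyMT 2 and 14 and *Lats2*-CKO 7 were adenomas, so that genotype and histology were unevenly spread over the groups.

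LATS2 is a kinase of the Hippo pathway. Together with its relative LATS1 it phosphorylates the co-activators YAP and TAZ, which are then held in the cytoplasm and do not bind TEAD factors at genes such as *Ctgf* and *Cyr61*. LATS2 has also been linked to the tumor suppressor p53, since it can bind MDM2, the ligase that marks p53 for degradation. A mammary tumor is embedded in a fat pad, so a bulk library holds RNA of tumor epithelium, adipocytes, vessels, fibroblasts and immune cells in proportions that differ between samples. In such libraries fewer cells of a type and less RNA per cell cannot be told apart.

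Depth was even, with 23155319 to 31909282 counted reads per library. Levels are given below as CPM, the reads of a gene relative to all reads of its library, after scaling by the trimmed mean of M values (TMM), and differences as log2 fold changes of *Lats2*-CKO over WT-PyMT with their standard error (SE) from edgeR. Wherever 7 values are listed, they follow the order WT-PyMT 1, 2 and 14, then *Lats2*-CKO 1, 7, 8 and 16. The level of a gene list is the mean log2 CPM of its members with a mean of at least 1 CPM.

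*Lats2* itself, on chromosome 14, was at 23.01, 28.9 and 53.3 CPM in the WT-PyMT tumors and at 32.5, 8.26, 10.6 and 15.9 CPM in the *Lats2*-CKO tumors. The library labelled *Lats2*-CKO 1 was therefore within the WT-PyMT range despite its label, and the other 3 *Lats2*-CKO libraries were below every WT-PyMT library. Reads of the remaining exons and of undeleted cells are counted, so this level alone does not decide its genotype. The log2 fold change was −1.06 (SE 0.522, edgeR unadjusted p = 0.0805) over all libraries, and −1.60 (edgeR unadjusted p = 0.00784) without the library labelled *Lats2*-CKO 1. *Lats1*, the other LATS kinase, was at 148, 128 and 102 CPM against 143, 138, 137 and 136 CPM, a log2 fold change of 0.13 (SE 0.155).

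WT-PyMT 14 stood farthest from the others, at a root mean square distance of 4.11 to 5.43 log2 units against 1.36 to 3.56 among the other 6, and carried lymphocyte transcripts. *Lats2*-CKO 7 carried skeletal muscle and milk protein transcripts. The library labelled *Lats2*-CKO 1 lacked the agouti transcript that the other 3 *Lats2*-CKO libraries held. Agouti, a ligand of melanocortin receptors listed under its symbol *a*, was at 0.172, 0.253 and 0.415 CPM in WT-PyMT, at 0.218 CPM in the library labelled *Lats2*-CKO 1, and at 765, 438 and 321 CPM in *Lats2*-CKO 7, 8 and 16. *Cntn4*, which encodes a neuronal adhesion protein, showed the same division, with 0, 0.0361 and 0.124 CPM in WT-PyMT, 0 in the library labelled *Lats2*-CKO 1 and 7.20, 18.1 and 13.5 CPM in the others. For *Zfp429* (0.249 CPM) and *Otx1* (18.3 CPM) the library labelled *Lats2*-CKO 1 stood with the other *Lats2*-CKO libraries. Both genes were picked by the difference between the groups.

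**Figure D1:**
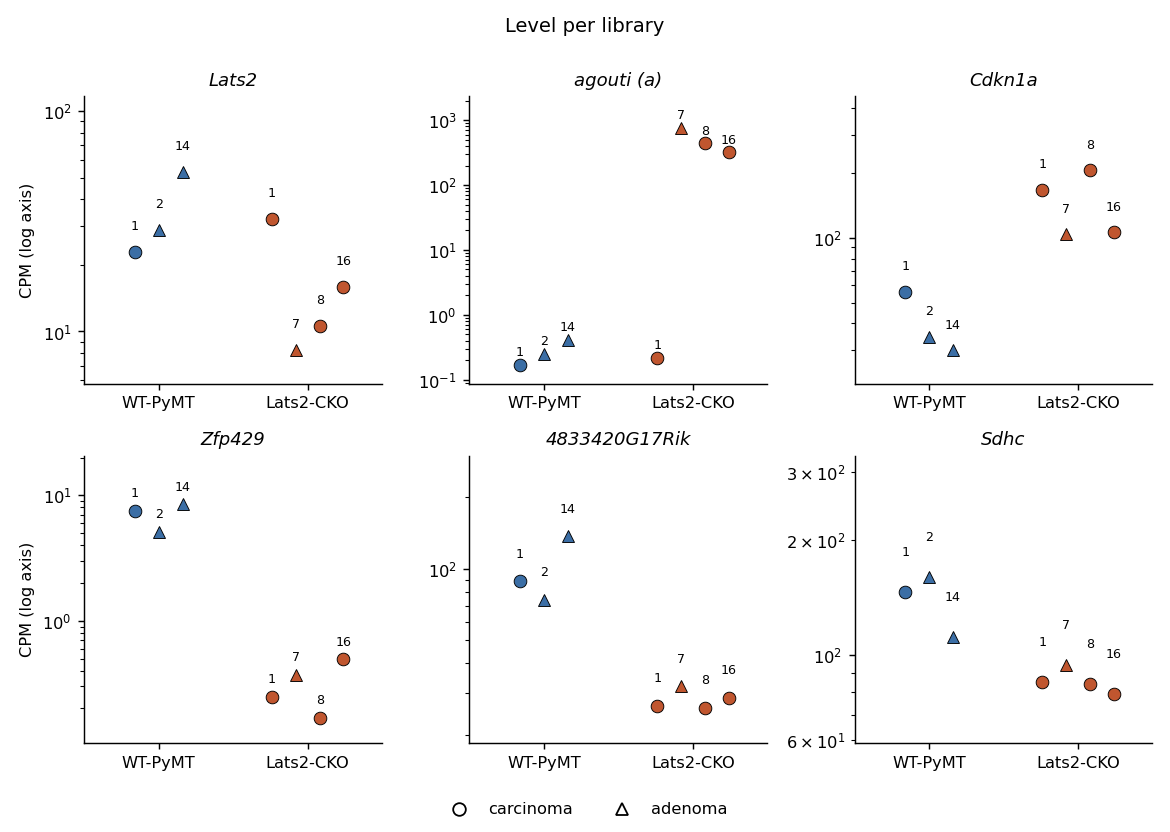
CPM (log axis) of *Lats2*, agouti, *Cdkn1a*, *Zfp429*, *4833420G17Rik* and *Sdhc* in each of the 7 libraries, circles for carcinomas and triangles for adenomas. *Lats2* of the library labelled *Lats2*-CKO 1 (32.5) lies within the WT-PyMT range, agouti is at 0.218 there and at 321 to 765 in the other *Lats2*-CKO libraries, and the groups do not overlap for the last 4 genes.

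Across all genes, edgeR called 0 of 17702 genes (0.00%) at an adjusted p under 0.05, and the smallest adjusted p was 0.394. At an unadjusted p under 0.05 it found 208 genes higher (1.18%) and 1046 lower (5.91%) in *Lats2*-CKO. DESeq2 gave an adjusted p for 15525 genes and called 17 of them higher (0.110%) and 121 lower (0.779%). Without regard to any test, the *Lats2*-CKO values of 254 genes (1.43%) lay all above, and those of 400 genes (2.26%) all below, the WT-PyMT values. Genes are described below as called only where DESeq2 did so, and edgeR's p is given as unadjusted. Counts of list members below are to be read beside these shares over all genes.

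The genes that DESeq2 called higher were few and mixed in function. Of the 17, 14 did not overlap between the groups and 16 belonged to none of the 64 gene lists that were followed. Their median log2 fold change was 3.44 with all libraries and 3.38 among carcinomas alone, where 17 of 17 were higher. Those carcinomas are among the libraries that gave the calls. For the 14 genes without overlap the sign among carcinomas was thus fixed beforehand.

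*Cdkn1a*, at chr17:29090979-29100722, encodes p21, an inhibitor of cyclin-dependent kinases and a textbook target of p53. It was at 56.0, 34.7 and 30.1 CPM in WT-PyMT and at 167, 103, 205 and 106 CPM in *Lats2*-CKO. Every *Lats2*-CKO tumor was above every WT-PyMT tumor. The log2 fold change was 1.85 (SE 0.346, edgeR unadjusted p = 0.000909, DESeq2 adjusted p = 0.000565), and it was 1.51 among carcinomas. The DESeq2 call held with each library left out, at adjusted p-values of up to 0.0122. The promoter of *Cdkn1a* is shown because the transcript rose in all 4 *Lats2*-CKO tumors and the gene is a known p53 target. It runs from 250 bases before to 50 bases after the RefSeq start in GRCm38.p6, at chr17:29090729-29091028 on the plus strand, and capitals mark its 2 matches to the p53 half-site:
Cdkn1a: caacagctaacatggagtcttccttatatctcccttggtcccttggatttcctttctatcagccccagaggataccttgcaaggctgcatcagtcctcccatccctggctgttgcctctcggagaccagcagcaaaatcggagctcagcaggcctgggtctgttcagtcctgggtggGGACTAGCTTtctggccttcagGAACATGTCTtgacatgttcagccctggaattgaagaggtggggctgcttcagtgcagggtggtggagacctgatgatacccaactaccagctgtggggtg
A p53 half-site was present in 7.27% of the 13172 promoters of measured genes and in 7.32% of the 82 found for the genes called lower. Of the 14 promoters found for the genes DESeq2 called higher, 5 held it, with 2 matches in *Cdkn1a* and 1 each in *Ddit4l*, *Fbp2*, *Gm11413* and *Tpm2*. Of the 16 found for the p53 list, which includes *Trp53* itself, 7 held it. These are matches of letters in the reference and not measured binding sites.

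The other genes called higher in all 7 leave-one-out DESeq2 fits were agouti, *Fbp2*, *Otx1* and *Sycp1*. *Fbp2* encodes the muscle form of fructose-1,6-bisphosphatase, an enzyme of gluconeogenesis, and stood at 0.996, 5.85 and 0.995 CPM against 26.3, 20.6, 26.0 and 14.0 CPM, a log2 fold change of 3.05 (SE 0.742). *Otx1*, a homeobox transcription factor, stood at 0.447, 2.09 and 0.456 CPM against 18.3, 5.67, 10.2 and 9.56 CPM. *Sycp1*, a component of the synaptonemal complex of meiotic chromosomes, was at 0.378, 0.0361 and 0 CPM against 4.38, 2.03, 3.64 and 3.93 CPM. None of the 3 overlapped between the groups. The agouti difference, 10.41 (SE 2.41) on the log2 scale, rested on 3 of the 4 *Lats2*-CKO libraries and was the 1 edgeR call without the library labelled *Lats2*-CKO 1.

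Several more of the DESeq2 calls came with a wide spread inside the *Lats2*-CKO group. *Slc47a1*, a transporter that extrudes organic cations, was at 0.0687, 0.144 and 0.0829 CPM in WT-PyMT and at 130, 3.37, 12.3 and 11.7 CPM in *Lats2*-CKO (log2 fold change 8.57, SE 1.73). *Kcnj12*, an inward rectifier potassium channel, stood at 0.0687, 0.108 and 0.0829 CPM against 8.43, 1.75, 0.568 and 0.718 CPM. In both, the library labelled *Lats2*-CKO 1 was the highest. *Trim12a* was at 7.45 and 15.4 CPM in *Lats2*-CKO 8 and 16 and near 0 in the other 5 libraries, so its call rested on 2 tumors. *Gm11413*, an uncharacterised transcript, reached 29.9 CPM in *Lats2*-CKO 16 and 1.12 to 4.61 CPM in the other *Lats2*-CKO tumors.

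Among abundant transcripts the called differences were smaller and more even. *Itm2c*, a membrane protein gene of the BRICHOS family, stood at 282, 236 and 210 CPM against 806, 405, 452 and 488 CPM (log2 fold change 1.15, SE 0.287). *Atp1b1*, the beta subunit of the sodium pump, stood at 68.9, 73.1 and 66.6 CPM against 97.1, 131, 93.4 and 107 CPM, a log2 fold change of 0.62 (SE 0.159). Actin-linked genes were represented by *Pfn2*, a profilin, at 15.4, 17.04 and 11.4 CPM against 30.0, 23.5, 26.8 and 25.5 CPM, and by *Tpm2*, a tropomyosin, at 36.3, 78.9 and 36.2 CPM against 110, 325, 136 and 143 CPM. The highest *Tpm2* value was that of *Lats2*-CKO 7, the library with muscle transcripts, and without it the log2 fold change was 1.34 in place of 1.82. *Hspb2*, a small heat shock protein of muscle, was a less abundant called gene, at 0.859, 1.08 and 0.663 CPM against 2.24, 2.86, 2.505 and 3.10 CPM, and *Hhatl* stood at 0.172, 0.0361 and 0.0415 CPM against 2.11, 3.14, 0.234 and 0.869 CPM. *Ddit4l*, known to inhibit mTORC1 signaling, was at 6.22, 3.79 and 1.04 CPM against 13.3, 21.3, 13.8 and 14.0 CPM. Of the 7 DESeq2 fits with a library left out, *Hspb2* was called in 6, *Pfn2* in 4, *Itm2c* and *Hhatl* in 3, *Tpm2* and *Ddit4l* in 2 and *Atp1b1* in 1. All but *Ddit4l* lost the call without WT-PyMT 14, at adjusted p-values of 0.0508 for *Pfn2* to 0.44 for *Atp1b1*.

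The 121 genes called lower divided by how WT-PyMT 1, the only WT-PyMT carcinoma, behaved. In 83 of them WT-PyMT 1 was below the highest *Lats2*-CKO library, and in 91 it was within 2-fold of the *Lats2*-CKO mean. The highest value was in WT-PyMT 2 for 66, in WT-PyMT 14 for 53 and in WT-PyMT 1 for 2. The remaining 38 did not overlap between the groups, and the most even of them are described first.

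*Zfp429*, at chr13:67388924-67399917, encodes a KRAB zinc finger protein. It was at 7.56, 5.09 and 8.46 CPM in WT-PyMT and at 0.249, 0.369, 0.167 and 0.491 CPM in *Lats2*-CKO. All 4 *Lats2*-CKO tumors were far below all 3 WT-PyMT tumors, and the log2 fold change was −4.45 (SE 0.491, edgeR unadjusted p = 3.09e-05, DESeq2 adjusted p = 1.01e-17). *Gm8801*, an uncharacterised transcript, was at 1.99, 2.89 and 4.06 CPM in WT-PyMT and had a single read in the 4 *Lats2*-CKO libraries together. *4833420G17Rik*, also without an assigned function, stood at 88.5, 74.2 and 137 CPM against 26.5, 32.0, 26.1 and 28.7 CPM, a log2 fold change of −1.82 (SE 0.23). *Adcy10*, the soluble adenylyl cyclase, stood at 0.927, 1.805 and 1.70 CPM against 0.0933, 0.277, 0.100 and 0.0756 CPM. For these genes the carcinomas alone gave log2 fold changes of −4.63 for *Zfp429*, −7.01 for *Gm8801*, −1.71 for *4833420G17Rik* and −3.31 for *Adcy10*, close to the values over all 7 tumors. The carcinomas are among those 7 tumors, and the genes were picked as even and without overlap. Their sign among carcinomas was thus fixed beforehand, and the closeness follows in part from that choice.

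*H2-Ea-ps*, a pseudogene of the class II histocompatibility cluster, stood at 1.10, 1.41 and 26.4 CPM in WT-PyMT and at 0 in all *Lats2*-CKO libraries, at least 354-fold lower when 3 counts over the group were taken as the floor. *Serpina1e*, one of several near-identical alpha-1 antitrypsin genes, was at 0.0343, 0.289 and 10.6 CPM against 0 in all *Lats2*-CKO libraries, at least 134-fold lower. WT-PyMT 14 held most reads of both, and without it the bounds were at least 46.1-fold lower for *H2-Ea-ps* and at least 5.94-fold lower for *Serpina1e*. Reads of near-identical genes such as *Serpina1e* can be split or lost in counting, so its value is uncertain. Why *H2-Ea-ps* had no reads in the *Lats2*-CKO libraries was not tested.

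Cell type markers showed which tissues the libraries held. The 13 pan-epithelial genes were at a level of 8.02, 7.70 and 5.96 in WT-PyMT and 7.15, 7.92, 7.75 and 7.74 in *Lats2*-CKO, and 0 of them passed an unadjusted p of 0.05. *Epcam*, an epithelial adhesion molecule, was at 1363, 848 and 230 CPM against 764, 1280, 973 and 1213 CPM. The tumors were thus epithelial by their defining markers, with the lowest level in WT-PyMT 14. Of 15 basal and myoepithelial genes 0 passed, with a median log2 fold change of 0.38. Among 13 genes of hormone-sensing luminal cells, *Esr1*, the estrogen receptor, was lower at 13.2, 36.5 and 25.5 CPM against 10.1, 13.1, 13.3 and 15.2 CPM (log2 fold change −0.96, SE 0.352, edgeR unadjusted p = 0.0284, not called by DESeq2), and the list's median was −1.16. *Esr1* of WT-PyMT 1 was at the level of the *Lats2*-CKO tumors, and the log2 fold change among carcinomas was −0.03. The median of the list turned to 1.90 among carcinomas. Of 12 alveolar and luminal progenitor genes 1, *Mfge8*, passed an unadjusted p of 0.05 in the higher direction. The median of 0.66 was 0.28 without WT-PyMT 14, −0.05 without WT-PyMT 14 and *Lats2*-CKO 7 together, and −0.37 among carcinomas.

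**Figure D2:**
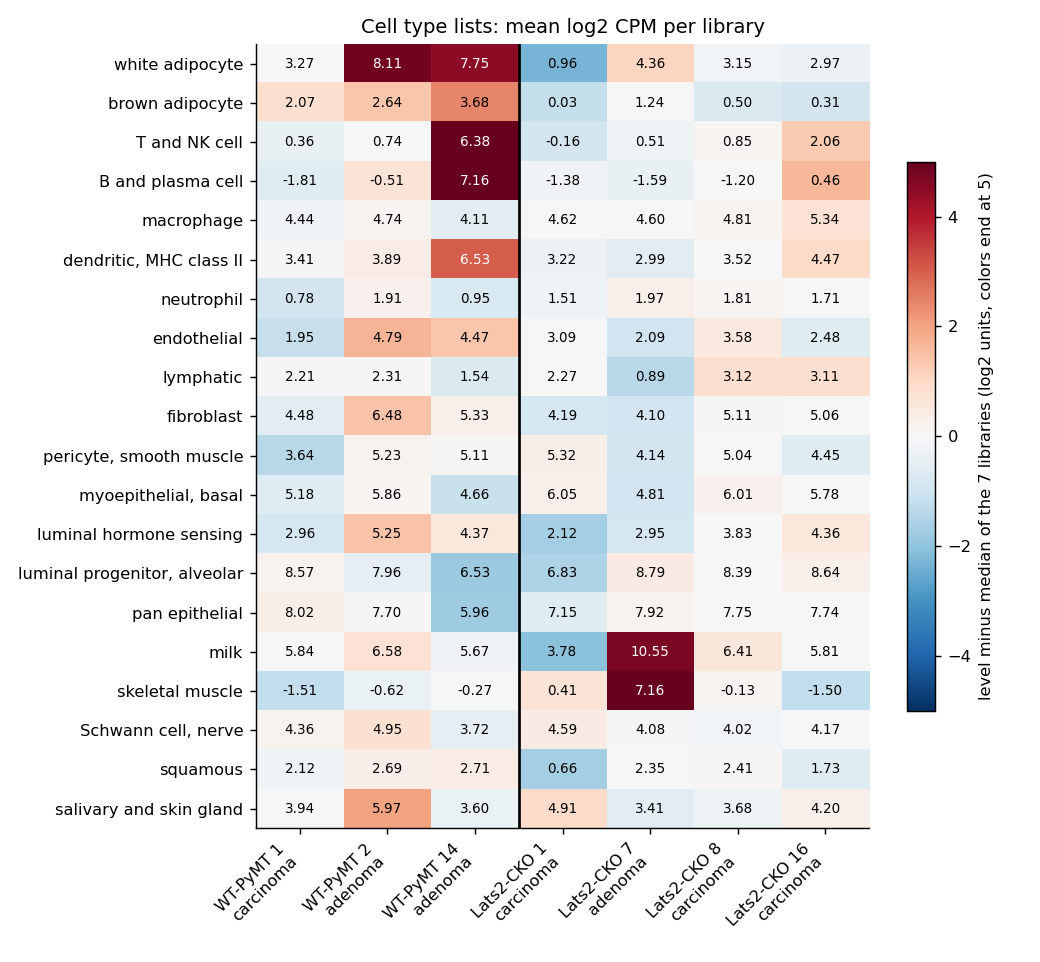
Level of 20 cell type lists (rows) in the 7 libraries (columns), numbers giving the mean log2 CPM of the list's expressed members and colors the difference from the median of the 7 libraries, ending at 5. White adipocyte genes are high in WT-PyMT 2 and 14 (8.11 and 7.75), T and B cell genes in WT-PyMT 14 (6.38 and 7.16), and muscle and milk genes in *Lats2*-CKO 7 (7.16 and 10.55).

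White adipocyte genes were the list with the most members lower in *Lats2*-CKO. Of 20 measured, 18 were lower at an unadjusted p under 0.05 (against 5.91% of all genes) and 0 were higher. DESeq2 called 14 lower (against 0.779% of the genes it gave an adjusted p). The median log2 fold change was −4.54 where the median over all genes was 0.00. The level of the list was 3.27 in WT-PyMT 1, 8.11 in WT-PyMT 2 and 7.75 in WT-PyMT 14, against 0.96, 4.36, 3.15 and 2.97 in *Lats2*-CKO. *Lats2*-CKO 7 was thus above WT-PyMT 1, and only 1 of the 20 genes did not overlap between the groups. *Adipoq*, which encodes the adipocyte hormone adiponectin, was at 7.38, 671 and 377 CPM against 0.342, 23.8, 6.75 and 6.73 CPM (log2 fold change −5.23, SE 1.59, DESeq2 adjusted p = 0.0145). *Retn*, encoding resistin, was at 1.68, 236 and 227 CPM against 0.218, 2.58, 1.87 and 0.529 CPM. *Fabp4*, the fatty acid carrier of adipocytes, was at 58.4, 2181 and 2005 CPM against 5.97, 109, 45.4 and 24.8 CPM. Without WT-PyMT 14 the DESeq2 adjusted p was 0.501 for *Adipoq*, 0.0503 for *Retn* and 0.397 for *Fabp4*. Among carcinomas alone the median of the list was −0.55, and 0 of 20 passed an unadjusted p of 0.05.

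Brown adipocyte genes were 1 of 2 lists, of 64, whose levels did not overlap between the groups. Of single genes, 2.26% lay all below and 1.43% all above, so 2 of 64 lists is near that share. The brown adipocyte list stood at 2.07, 2.64 and 3.68 in WT-PyMT against 0.03, 1.24, 0.50 and 0.31 in *Lats2*-CKO. Of 9 measured genes 5 were lower at an unadjusted p under 0.05 (*Ucp1*, *Cox8b*, *Elovl3*, *Otop1* and *Slc36a2*), 2 of them called by DESeq2, and the median was −1.88. *Ucp1*, on chromosome 8, encodes the uncoupling protein by which brown and beige fat makes heat. It was at 7.97, 0.867 and 51.9 CPM in WT-PyMT and at 0.0933, 0.0923, 0.0334 and 0.0378 CPM in *Lats2*-CKO, that is, 1 to 3 reads per library. No *Lats2*-CKO library reached a WT-PyMT library, and the log2 fold change was −8.21 (SE 1.44, edgeR unadjusted p = 0.000629, DESeq2 adjusted p = 8.05e-08). It was −7.05 among carcinomas and −6.02 without WT-PyMT 14. The *Ucp1* promoter is shown because this gene was lower in every *Lats2*-CKO tumor, the carcinomas included. It lies at chr8:83290098-83290397 on the plus strand of GRCm38.p6 (RefSeq), and capitals mark AGGTCA, the half-site of PPARG and other nuclear receptors:
Ucp1: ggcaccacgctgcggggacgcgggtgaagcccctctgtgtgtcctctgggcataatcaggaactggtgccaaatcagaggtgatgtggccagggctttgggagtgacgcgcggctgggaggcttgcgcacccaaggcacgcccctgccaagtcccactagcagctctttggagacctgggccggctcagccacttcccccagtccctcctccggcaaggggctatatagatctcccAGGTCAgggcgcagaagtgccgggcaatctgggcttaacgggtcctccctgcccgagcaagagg
AGGTCA, searched on both strands, was present in 13.4% of the 82 promoters found for the genes called lower and in 13.3% of all 13172 promoters.

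Lymphocyte genes were lower in *Lats2*-CKO through 1 library. Of 19 T and NK cell genes 15 passed an unadjusted p of 0.05 in the lower direction, with levels of 0.36, 0.74 and 6.38 in WT-PyMT and −0.16 to 2.06 in *Lats2*-CKO. Of 15 B and plasma cell genes 10 passed, with a level of 7.16 in WT-PyMT 14 and −1.81 to 0.46 in the other 6 libraries. *Cd3e*, a chain of the T cell receptor complex, was at 250 CPM in WT-PyMT 14 and 0.622 to 7.60 CPM elsewhere, and *Cd79a*, a chain of the B cell receptor complex, at 286 CPM and 0.240 to 1.25 CPM. Without WT-PyMT 14, 0 genes of either list were lower at that p, and the medians turned to 0.41 for T and NK cells and 0.46 for B cells. DESeq2 called 0 genes of either list lower.

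Myeloid genes moved less. Of 16 macrophage genes, *C1qb* and *C1qc*, chains of complement component C1q that macrophages secrete, were higher at an unadjusted p under 0.05. *C1qb* stood at 86.5, 100 and 77.9 CPM against 146, 106, 107 and 186 CPM, and *C1qc* at 75.6, 80.7 and 65.2 CPM against 105, 93.1, 86.1 and 157 CPM. The scavenger receptor *Marco* was the 1 lower gene of the list, a count near the 5.91% of all genes. Its reads were mostly in WT-PyMT 14, and the median of the list was 0.45. Of 10 neutrophil genes *Mmp8* and *Cd177* were higher and 0 lower. Of 12 dendritic cell and class II genes *Flt3*, *Xcr1* and *Cd209a* were lower, and the list's level was again highest in WT-PyMT 14, at 6.53 against 2.99 to 4.47 elsewhere.

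Stromal lists differed from each other and turned with histology. All 16 endothelial genes had a negative fold change, with a median of −1.15, yet only *Pecam1* and *Cldn5*, both of endothelial junctions, passed an unadjusted p of 0.05. The level of the list was 1.95, 4.79 and 4.47 in WT-PyMT and 2.09 to 3.58 in *Lats2*-CKO. Without WT-PyMT 1, 15 of 16 passed in the lower direction, as did 2163 of all 17702 genes in that fit. Among carcinomas the median of the list was 1.25. Of 16 fibroblast genes *Thy1*, *Dpt* and *Fap* passed in the lower direction, and the median of −0.99 became −0.18 without WT-PyMT 2, −1.25 without WT-PyMT 1 and 0.61 among carcinomas. Of 12 pericyte and smooth muscle genes 0 passed, with a median of 0.51 that was 1.66 among carcinomas.

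Skeletal muscle genes were all higher by sign, 16 of 16, and 8 passed an unadjusted p of 0.05 in that direction, all through *Lats2*-CKO 7. The list stood at 7.16 there and at −1.51 to 0.41 in the other libraries. *Ckm*, the creatine kinase of muscle, was at 284 CPM in that tumor and 0.249 to 1.21 CPM elsewhere, and without it 0 of 16 passed and the median was 0.66 in place of 6.46. Of 11 squamous genes *Krt6a* was higher and *Dsc3* lower, and of 7 salivary and skin gland genes *Amy1*, an amylase, was called lower, at 4.22, 110.8 and 68.9 CPM against 1.71, 5.49, 2.104 and 3.71 CPM. Milk protein genes also stood out in *Lats2*-CKO 7, at 10.55 against 3.78 to 6.58 elsewhere. *Csn2*, encoding beta-casein, was at 27280 CPM in that adenoma against 3.95 to 435 CPM elsewhere, and 0 of 12 milk genes passed.

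Genes of fat storage and fatty acid synthesis were lower together with the adipocyte markers. The lists share members, so in part the same genes are counted again. Shared with the white adipocyte list are, for example, *Plin1* in lipid droplets, *Fabp4* and *Lpl* in lipid uptake, *Pparg* among PPAR factors and *Pck1* in the TCA cycle. Of 16 fatty acid synthesis genes 8 were lower at an unadjusted p under 0.05 (against 5.91% of all genes), and 1, the desaturase *Fads1*, was higher. DESeq2 called 3 of the 8 lower, *Fasn*, *Acaca* and *Mlxipl*. The median log2 fold change was −1.13, and the level of the list was 7.42, 8.64 and 8.22 against 7.15, 7.52, 7.27 and 7.09. *Fasn*, on chromosome 11, encodes fatty acid synthase, which builds palmitate. It was at 503, 3805 and 3461 CPM in WT-PyMT and at 346, 466, 328 and 382 CPM in *Lats2*-CKO. The groups did not overlap, but WT-PyMT 1 was much closer to the *Lats2*-CKO tumors than to the other WT-PyMT tumors. The log2 fold change was −2.77 (SE 0.631, edgeR unadjusted p = 0.00289, DESeq2 adjusted p = 0.00386), and among carcinomas it was −0.52. *Acaca*, acetyl-CoA carboxylase, which commits acetyl-CoA to this pathway, stood at 50.4, 251 and 228 CPM against 21.5, 57.3, 38.4 and 27.6 CPM. Of the 7 fits with a library left out DESeq2 called *Fasn* in 6, all but that without *Lats2*-CKO 8 (adjusted p = 0.052), and *Acaca* in 2, those without WT-PyMT 1 and *Lats2*-CKO 7. *Srebf1*, named after its value was seen and encoding a transcription factor that drives this pathway, was highest in WT-PyMT 1, at 2305, 1051 and 427 CPM against 1458, 1182, 987 and 1373 CPM, with a log2 fold change of −0.01. Among carcinomas 0 of 16 were lower at an unadjusted p under 0.05, and the median was −0.16.

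The *Fasn* promoter is shown as the gene of this pathway with the largest fall. It lies at chr11:120824498-120824797 on the minus strand of GRCm38.p6 (RefSeq), and capitals mark the CCAAT box read on either strand, 3 matches of which the last pair overlap:
Fasn: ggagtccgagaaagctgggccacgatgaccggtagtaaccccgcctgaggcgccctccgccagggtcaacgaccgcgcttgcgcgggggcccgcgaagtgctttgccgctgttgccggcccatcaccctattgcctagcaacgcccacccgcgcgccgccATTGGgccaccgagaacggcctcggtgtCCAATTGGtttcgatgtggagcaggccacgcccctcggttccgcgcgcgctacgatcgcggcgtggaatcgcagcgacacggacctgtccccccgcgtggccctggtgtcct
CCAAT was present in 8 of the 13 promoters found for the fatty acid synthesis list and in 38.0% of all 13172 promoters.

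**Figure D3:**
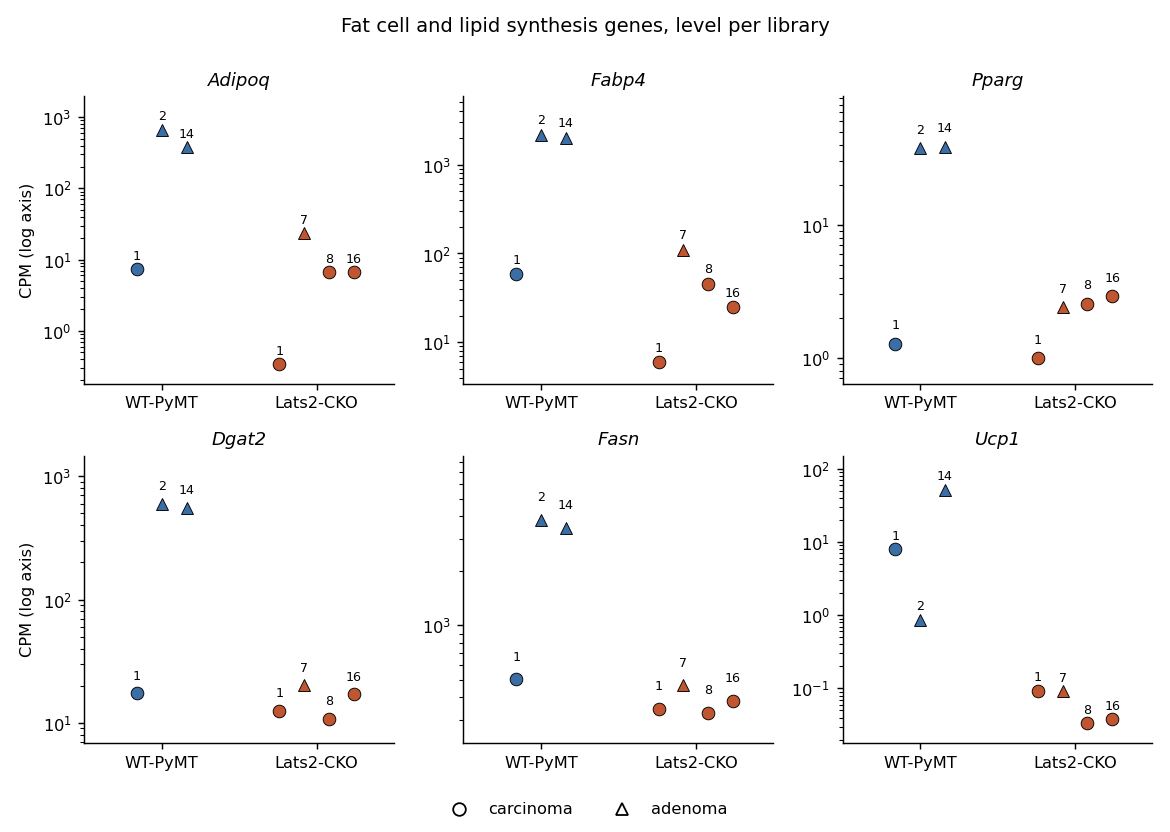
CPM (log axis) of *Adipoq*, *Fabp4*, *Pparg*, *Dgat2*, *Fasn* and *Ucp1* in each library, circles for carcinomas and triangles for adenomas. WT-PyMT 2 and 14 (adenomas) are highest for the first 5 genes while WT-PyMT 1 (a carcinoma) lies near the *Lats2*-CKO tumors, whereas all 3 WT-PyMT values of *Ucp1* (0.867 to 51.9) are above every *Lats2*-CKO value.

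*Pparg*, the nuclear receptor that drives adipocyte differentiation, was at 1.27, 37.5 and 38.4 CPM in WT-PyMT and at 0.995, 2.40, 2.54 and 2.91 CPM in *Lats2*-CKO. The library labelled *Lats2*-CKO 1 and WT-PyMT 1 held the lowest values. The log2 fold change was −3.54 (SE 0.985, edgeR unadjusted p = 0.00819, DESeq2 adjusted p = 0.024), while among carcinomas it was 0.75, in the opposite direction. DESeq2 called *Pparg* in only 1 of the 7 fits with a library left out, that without WT-PyMT 1, and gave adjusted p-values of 0.0581 to 0.305 in the other 6. Of 17 PPAR, RXR and adipogenic factor genes 8 were lower and 1, *Cebpd*, was higher at an unadjusted p under 0.05. The median was −0.39, and 0.06 among carcinomas.

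The last step of triglyceride synthesis is made by DGAT2. *Dgat2* was at 17.3, 600 and 555 CPM against 12.4, 20.1, 10.8 and 16.9 CPM, a log2 fold change of −4.70 (SE 1.01) that was −0.37 among carcinomas. DESeq2 called it in 6 of the 7 fits with a library left out, all but that without WT-PyMT 14 (adjusted p = 0.0878). At an unadjusted p under 0.05, where 5.91% of all genes were lower, 6 of 12 triglyceride synthesis genes were lower and 0 higher. By sign 11 were lower and 1 higher, with a median of −1.26. At the same p, 11 of 20 lipid droplet and lipolysis genes were lower and 0 higher, while by sign 16 were lower and 4 higher, with a median of −1.53. They included *Plin1*, the perilipin coat of the droplet, at 3.40, 184 and 104 CPM against 0.124, 5.49, 2.67 and 2.42 CPM. At that p, 4 of 14 lipid uptake genes were lower (*Lpl*, *Cd36*, *Fabp4* and *Slc27a1*), as were 5 of 13 genes of glucose uptake and insulin action, among them *Slc2a4*, the insulin-regulated glucose transporter, at 9.10, 81.7 and 55.5 CPM against 7.00, 15.6, 11.99 and 12.4 CPM. Of 15 adrenergic and cyclic AMP genes 5 were lower at that p, with a median of −1.57. In all these lists the adipocyte marker level moved with the result, and its part was not tested. Of 23 cholesterol synthesis genes 0 passed, with a median of 0.10.

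A further 4 genes with a large fall or a small DESeq2 p are given singly, since they were picked by those values and not from a list. *Gys2*, the liver form of glycogen synthase, stood at 0.584, 28.3 and 16.5 CPM against 0, 0.0923, 0.0668 and 0.227 CPM. *Pygl*, the glycogen phosphorylase of liver, stood at 12.7, 111 and 132 CPM against 8.24, 6.46, 4.34 and 8.24 CPM, with no overlap (log2 fold change −3.64, SE 0.716). *Slc2a5*, a fructose transporter, stood at 0.275, 10.8 and 11.8 CPM against 0.187, 0.185, 0.234 and 0.0378 CPM. *Pnpla3*, an enzyme of lipid droplets, stood at 5.46, 186 and 76.1 CPM against 0.902, 4.43, 1.77 and 2.495 CPM. In each of these WT-PyMT 1 was the WT-PyMT tumor nearest to the *Lats2*-CKO group.

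In the mitochondrial pathways, single genes differed rather than whole lists. Of 27 tricarboxylic acid (TCA) cycle and anaplerosis genes 23 had a negative fold change, with a median of −0.19. At an unadjusted p under 0.05, 4 were lower (*Pcx*, *Sdhc*, *Pck1* and *Idh1*), against 5.91% of all genes, and DESeq2 called the first 3. *Sdhc* encodes the cytochrome b subunit that anchors succinate dehydrogenase in the inner membrane. It was at 146, 160 and 112 CPM against 85.2, 94.1, 83.9 and 79.3 CPM, and every *Lats2*-CKO tumor was below every WT-PyMT tumor. The log2 fold change was −0.70 (SE 0.159, edgeR unadjusted p = 0.0028, DESeq2 adjusted p = 0.00951) and −0.82 among carcinomas, but DESeq2 called it in only 3 of the 7 fits with 1 library left out. The other subunits were nearer to 0, with log2 fold changes of −0.19 for *Sdha*, −0.26 for *Sdhb* and 0.04 for *Sdhd*, none past an unadjusted p of 0.05. *Pcx*, pyruvate carboxylase, was at 80.7, 504 and 423 CPM against 51.2, 77.2, 69.2 and 65.4 CPM, and *Pck1*, which makes phosphoenolpyruvate from oxaloacetate, at 10.5, 530 and 408 CPM against 0.311, 16.5, 5.24 and 4.20 CPM. Both are abundant in adipocytes, and both were lowest among WT-PyMT in WT-PyMT 1. DESeq2 called *Pcx* in 2 and *Pck1* in 6 of the 7 fits with a library left out, and neither without WT-PyMT 14 (adjusted p = 0.0999 and 0.302). Of 30 nuclear genes of oxidative phosphorylation 0 passed, with a median of 0.01. Of 20 fatty acid oxidation genes *Eci1* and *Decr1* were lower, with a median of −0.19.

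Few glycolytic genes passed, and by sign 15 were higher and 6 lower. *Pfkp* and *Aldoc* lay without overlap above WT-PyMT, as did 1.43% of all genes, neither past an unadjusted p of 0.05. Of 21 genes, 1 passed an unadjusted p of 0.05, *Gapdh*, at 16.3, 20.1 and 25.8 CPM against 16.5, 8.07, 11.6 and 6.43 CPM, and it has many processed pseudogene copies that share its reads, so its count is uncertain. The median was 0.24, and *Pgk1*, *Pgam1* and *Eno1* held few reads, at means of 19.0, 6.96 and 1.415 CPM over the 7 libraries. *Slc2a1*, the basal glucose transporter, was at 129, 92.3 and 69.2 CPM against 208, 97.7, 106 and 121 CPM. The library labelled *Lats2*-CKO 1 had the highest level of the glycolysis list (6.83, against 5.78 to 6.12 elsewhere) and of 18 hypoxia genes (6.75, against 4.92 to 5.23 elsewhere), of which 0 passed. Among amino acid genes *Slc1a5*, a glutamine transporter, was called lower at 29.1, 320 and 585 CPM against 18.9, 42.2, 34.8 and 31.2 CPM, with a log2 fold change of −0.04 among carcinomas and calls in 3 of the 7 fits with a library left out. Of 16 genes of branched-chain amino acid catabolism 3 were lower, with a median of −0.31.

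The p53 list held 18 targets of p53, *Trp53* itself and *Cdkn2a*, which acts upstream of p53. Of these 20, 7 (against 1.18% of all genes) were higher at an unadjusted p under 0.05 and 0 lower. Without overlap 5 lay above WT-PyMT (against 1.43% of all genes), and the median log2 fold change was 0.32. Of the 18 targets alone, 6 were higher at that p and 5 did not overlap, with the same median. With histology as a covariate 1 of the 20 passed. DESeq2 called only *Cdkn1a*. The level of the list was 4.63, 4.60 and 4.69 in WT-PyMT and 5.39, 4.79, 5.61 and 4.99 in *Lats2*-CKO, the second of the 2 lists without overlap. The level of the 18 targets was 4.78, 4.78 and 4.82 against 5.36, 5.09, 5.68 and 5.10. *Sesn2*, encoding sestrin 2, an inhibitor of mTORC1, was at 18.6, 19.1 and 11.4 CPM against 31.6, 21.2, 29.3 and 31.1 CPM (log2 fold change 0.79, SE 0.261). *Gdf15*, a stress-induced secreted factor, was at 0.343, 0.180 and 0.456 CPM against 1.27, 1.15, 3.11 and 0.529 CPM. *Eda2r*, a death domain receptor of the TNF receptor family, was at 3.33, 2.85 and 1.70 CPM against 3.203, 7.20, 23.3 and 7.30 CPM. The other 3, *Zmat3*, *Tnfrsf10b* and *Cdkn2a*, are named because they complete the count. *Zmat3*, encoding an RNA-binding protein, was at 35.8, 34.4 and 33.9 CPM against 50.1, 50.2, 87.7 and 41.5 CPM. *Cdkn2a*, which encodes p16 and p19ARF, is not counted among the targets and was uneven, at 0.996, 0.650 and 0.746 CPM against 21.8, 0.138, 11.2 and 2.38 CPM. *Trp53*, the gene of p53, had a log2 fold change of −0.14 (SE 0.228) and *Mdm2* of 0.08 (SE 0.171), neither past an unadjusted p of 0.05. Among carcinomas 0 of the 20 were lower by sign and the median was 0.50, all set against the same tumor, WT-PyMT 1. For the 5 genes without overlap that sign was fixed beforehand.

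**Figure D4:**
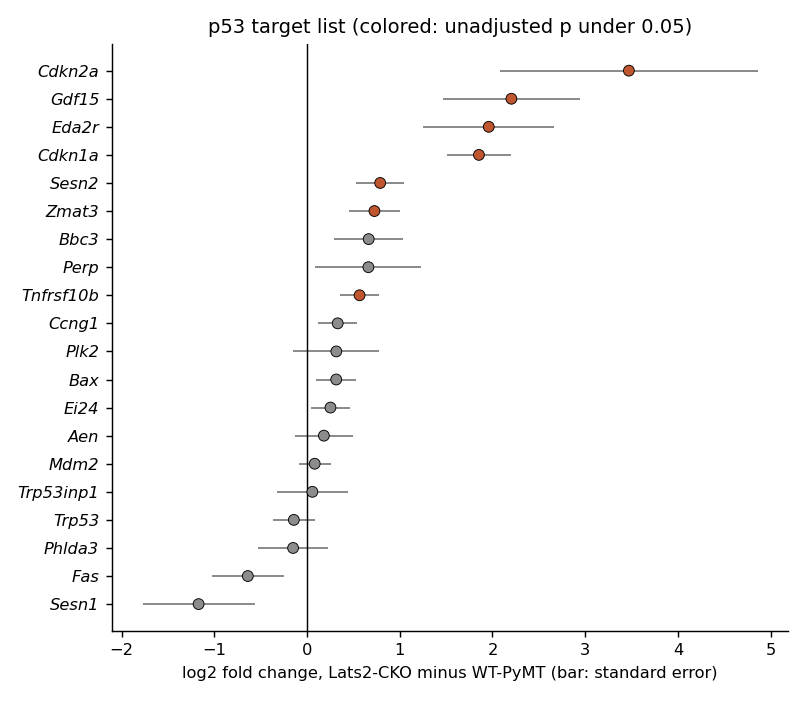
Log2 fold change of *Lats2*-CKO over WT-PyMT with its standard error for the 20 genes of the p53 list, that is 18 targets with *Trp53* and the upstream *Cdkn2a*, colored where the unadjusted edgeR p is under 0.05. The 7 colored genes are all to the right of 0, from 0.57 for *Tnfrsf10b* to 3.47 for *Cdkn2a*, while *Mdm2* and *Trp53* lie near 0.

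Proliferation, apoptosis and repair genes did not pass. Of 25 cell cycle genes 23 had a positive fold change and 0 passed, with a median of 0.43 and levels of 5.31, 5.71 and 4.91 against 5.95, 5.70, 6.11 and 4.75. *Mki67*, a marker of cycling cells, was at 212, 305 and 146 CPM against 276, 276, 362 and 159 CPM. Of 20 apoptosis genes and 16 DNA repair genes 0 passed, with medians of −0.08 and 0.06.

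Hippo pathway genes and YAP targets differed little with all 7 libraries. Of 17 upstream Hippo genes, the targeted *Lats2* among them, and 9 genes of YAP, TAZ and TEAD 0 passed. *Yap1* was at 254, 214 and 65.5 CPM against 258, 254, 222 and 226 CPM, and *Wwtr1*, encoding TAZ, at 136, 115 and 39.3 CPM against 119, 100, 122 and 127 CPM. In both WT-PyMT 14 was the lowest library, as it was for the pan-epithelial genes. Of 20 YAP targets, a list that also holds *Lats2*, 1 was higher at an unadjusted p under 0.05, with a median of 0.22. It was *Ctgf*, a matricellular growth factor, at 73.2, 67.9 and 29.3 CPM against 186, 65.5, 86.2 and 153 CPM (log2 fold change 1.11, SE 0.463, edgeR unadjusted p = 0.0459), and the groups overlapped. *Cyr61*, its relative, was at 81.0, 49.6 and 21.3 CPM against 212, 84.1, 51.5 and 55.7 CPM, highest in the library labelled *Lats2*-CKO 1. The median of the YAP target list was −0.10 without that library, −0.39 among adenomas and 0.41 among carcinomas. Without WT-PyMT 14 and *Lats2*-CKO 7 the median was 0.26. In that fit 4 of the 20 passed in the higher direction, as did 308 of all 17702 genes.

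Interferon and class I antigen presentation genes varied between tumors of the same genotype. Of 23 interferon-response genes 0 passed, with levels of 7.09, 5.16 and 6.93 in WT-PyMT and 6.74, 6.32, 6.99 and 7.79 in *Lats2*-CKO. Of 13 class I genes 1 was higher, *H2-T23*, a nonclassical class I gene, at 458, 164 and 206 CPM against 518, 567, 496 and 986 CPM. Class I genes have close paralogs, so their counts are uncertain. Of 20 chemokine genes *Ccl3* and *Cxcl5*, ligands that attract myeloid cells, passed an unadjusted p of 0.05 in the higher direction, and *Ccl5*, *Ccl19*, *Ccl22* and *Cxcl13* in the lower. The chemokine list was highest in WT-PyMT 14, the library with lymphocyte transcripts, at 4.34 against 1.87 to 3.21 elsewhere, and without that library 0 passed in either direction and the log2 fold changes were 0.88 for *Ccl5*, 0.85 for *Ccl19*, −0.47 for *Ccl22* and 1.87 for *Cxcl13*. Of 12 complement genes 5 were lower at that p (against 5.91% of all genes), with a median of −1.26 that was 0.69 among carcinomas. *Cfd*, the adipocyte protease adipsin, was the 1 that DESeq2 called, at 26.8, 1887 and 1564 CPM against 0.871, 115, 23.9 and 19.8 CPM, and it kept that call in 1 of the 4 fits with a library left out that gave it an adjusted p. *Ptgs2*, the inducible cyclooxygenase that makes prostaglandins, was higher without overlap, at 2.164, 1.41 and 1.16 CPM against 7.65, 4.98, 3.37 and 2.61 CPM (log2 fold change 1.56, SE 0.502, edgeR unadjusted p = 0.0163, DESeq2 adjusted p = 0.124).

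Matrix and growth factor lists held 0 to 3 genes each that passed an unadjusted p of 0.05. Over all genes 1.18% were higher and 5.91% lower at that p. A single lower gene in a list of 13 to 22 is near that share. In the collagen and matrix list *Tnc*, encoding tenascin C, was higher and *Tnn* lower of 22. Of 22 proteases *Mmp12* and *Mmp13* were higher and *Timp4* lower. *Mmp13*, a collagenase, was at 1.51, 1.12 and 0.249 CPM against 9.67, 1.80, 2.81 and 3.14 CPM. Of 20 IGF, FGF and PDGF genes *Igf1*, *Igfbp6* and *Fgf10* were lower. *Fgf10*, a stromal ligand of mammary epithelium, was at 0.412, 26.8 and 12.9 CPM against 0, 1.29, 0.401 and 0.454 CPM. Of 22 Wnt genes *Wnt5b* was higher and *Tcf7* lower, of 13 ERBB genes *Nrg4* was lower, and of 13 Notch genes and 15 epithelial-mesenchymal transition genes 0 passed.

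Restricted to carcinomas, the called genes kept their direction to different degrees, which followed in part from how they were chosen. Of the 121 called lower, 66 were highest in WT-PyMT 2 and 53 in WT-PyMT 14, the WT-PyMT adenomas left out here. Among carcinomas 83 of the 121 were lower by sign, and the median log2 fold change was −0.53 in place of −4.37. For the 38 of the 121 without overlap the sign was fixed beforehand. Of the 17 called higher, 17 were higher among carcinomas. Of these, 14 did not overlap between the groups, so their sign was fixed beforehand. These carcinoma values rest on 1 WT-PyMT tumor, whose spread was taken from the other group. With a genotype by histology term, edgeR called 0 genes (smallest adjusted p 0.147) and 1027 genes (5.8%) passed an unadjusted p of 0.05, on 3 residual degrees of freedom. Both WT-PyMT carcinoma and *Lats2*-CKO adenoma were arms of 1 tumor, the latter the library with muscle and milk transcripts, and a lone tumor was assumed to vary like the others. The term, the difference between carcinomas and adenomas in the log2 fold change, was 4.47 (SE 0.536) for *Dgat2*, 4.73 for *Pparg* and 2.45 for *Fasn*, and it was −0.16 for *Cdkn1a* and −0.45 for *Zfp429*.

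**Figure D5:**
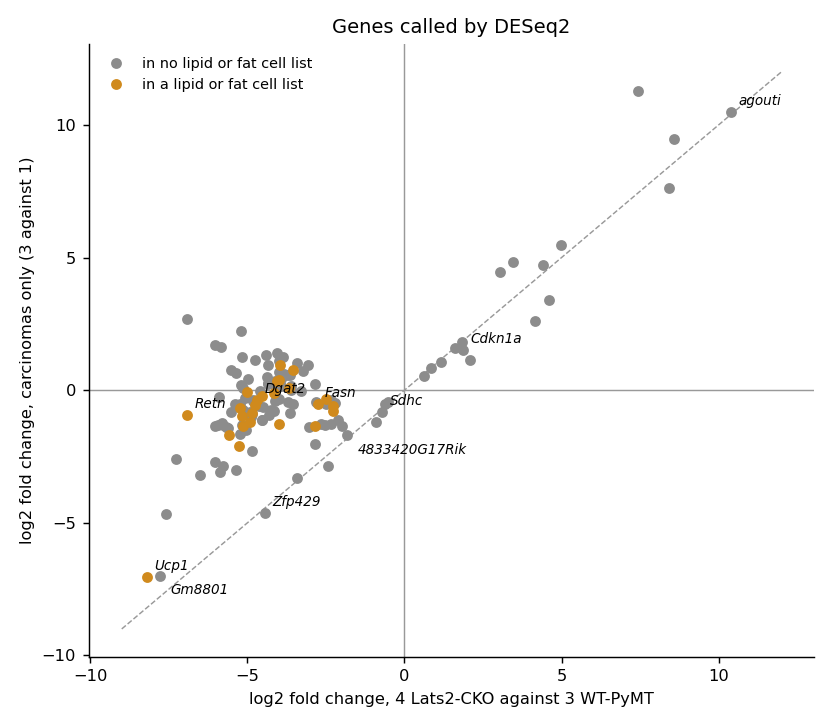
Log2 fold change of *Lats2*-CKO over WT-PyMT for the 138 genes called by DESeq2, from all 7 libraries (horizontal axis) and from carcinomas only, 3 against 1 (vertical axis), the dashed line marking equality and orange the genes of fat cell or lipid lists. The 17 higher genes are all above 0 on both axes (medians 3.44 and 3.38), while most of the 121 lower genes move toward 0 (medians −4.37 and −0.53). The carcinomas are among the 7 libraries that gave the calls.

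The count of DESeq2 calls moved with single libraries, from 48 without WT-PyMT 14 to 1151 without WT-PyMT 1, against 138 with all, and edgeR, which called 0 with all, called 57 genes without WT-PyMT 1, all lower. Of the 17 called higher and 121 called lower, 5 and 23 were called in every fit with 1 library left out. The 5 were agouti, *Cdkn1a*, *Fbp2*, *Otx1* and *Sycp1*. The 23 held *Zfp429*, *4833420G17Rik*, *Gm8801* and *Ucp1*, the adipocyte genes *Aqp7*, *Mrap*, *Hcar1* and *Rbp4*, and *Gys2* and *Pygl*.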

How the data were processed

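Poly(A) RNA of 7 mammary tumors was sequenced by the authors from unstranded TruSeq libraries made from 500 ng of total RNA, as single reads of 60 bases with the 7 libraries on 1 lane. Reads were aligned with STAR to mm10 and counted over RefSeq genes. RNA was isolated with either of 2 kits, and which tumor went with which kit is not given in the sources used here. The deposited values used were raw counts per gene, 17702 genes with at least 6 reads over the 7 libraries. Counting was not by strand, so antisense overlaps were not separated.

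Counts were tested in R 4.3.3 with edgeR 4.0.16 (TMM, quasi-likelihood test, Benjamini-Hochberg over all genes, threshold 0.05), with DESeq2 1.42.0, the tool of the study, as an alternative. CPM used TMM library sizes, and log2 CPM a prior count of 2. The p-values measure the spread between tumors of different mice. The scripts were tested on simulated counts with known changes. Genes named were *Lats2*, *Lats1*, *Yap1*, *Wwtr1*, *Pparg* and agouti, the 12 largest rises and 12 largest falls without overlap, all genes DESeq2 called higher, the 12 called lower with the smallest adjusted p, and, of each list, the first 3 and the 4 with the smallest p. Any gene outside these was picked once its values were known. The members and the 64 lists were chosen with earlier results of these data known, so lists are described by counts and medians and carry no test. Alternatives were DESeq2, RLE factors, edgeR's filter of weakly expressed genes, a robust fit, a term for histology, each library left out, carcinomas or adenomas only, and WT-PyMT 14 with *Lats2*-CKO 7 left out. DESeq2 with each library left out and the genotype by histology term were added after seeing the data. The *Lats1* experiment of the series was not analysed here.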

Additional observations from a re-analysis of the deposited data

Results flagged for a closer look

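Among the 4 *Lats2*-CKO libraries, 169 values were examined for 1 library that lay far from the other 3, 64 list levels and 105 genes, and 10 stood out by Dixon's test, where chance marks about 1 in 20. Of the 10, 5 were of the library labelled *Lats2*-CKO 1. Its hypoxia list was at 6.75, against 4.92 to 5.14 in the other 3. Its agouti level was −1.78 log2 CPM, against 8.33 to 9.58, and its *Cntn4* level −3.77 log2 CPM, against 2.86 to 4.18. *Slc12a3*, the thiazide-sensitive sodium chloride cotransporter, was at 2.156 log2 CPM there, against −0.09 to 0.18, and *Cxcl5*, a neutrophil chemokine, at 1.951 log2 CPM, against −1.15 to −0.64. Another 4 were of *Lats2*-CKO 7. *Myoz1*, a muscle Z-disc gene, was at 5.75 log2 CPM, against −3.17 to −1.78, *Ckm* at 8.151 log2 CPM, against −1.15 to 0.36, *Ddit4l* at 4.42 log2 CPM, against 3.74 to 3.81, and the Notch list at 3.80, against 5.08 to 5.27. In *Lats2*-CKO 16 the class I list was at 9.07, against 7.82 to 7.95.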

How the results depend on the processing

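No paired analysis was possible because the groups share only 1 replicate number. The edgeR count of 0 called genes held in every alternative except without WT-PyMT 1 (57, all lower) and without the library labelled *Lats2*-CKO 1 (1, agouti). Leaving out each library gave 0 to 57 calls with edgeR and 48 to 1151 with DESeq2, against 138 with all 7. By library these DESeq2 counts were 1151, 363 and 48 without WT-PyMT 1, 2 and 14, and 81, 192, 60 and 99 without *Lats2*-CKO 1, 7, 8 and 16. Genes at an unadjusted p under 0.05, 1254 in all, numbered 324 with histology as a covariate, 409 in carcinomas only, 635 in adenomas only and 694 without WT-PyMT 14 and *Lats2*-CKO 7. With single libraries left out the count ranged from 504 to 2608 with edgeR and from 598 to 3035 with DESeq2. Of the 138 DESeq2 calls, 38 changed sign in carcinomas only and 0 in any other alternative. Of the 158 genes covered by the naming rule with an unadjusted p under 0.05, 44 changed sign in carcinomas only, 17 without WT-PyMT 14 and 17 without WT-PyMT 14 and *Lats2*-CKO 7. Of the genes named in the text, the log2 fold changes in carcinomas only were 0.75 for *Pparg*, 0.37 for *Lpl*, 0.20 for *Slc2a4*, 0.01 for *Slc27a1*, 1.33 for *Pecam1*, 0.73 for *Cldn5*, 1.20 for *Thy1*, 0.06 for *Fap*, 1.06 for *Igf1*, 0.71 for *Nrg4*, 1.03 for *Timp4*, 0.12 for *Dsc3* and *Xcr1*, 1.35 for *Cd3e*, 1.37 for *Cd79a* and *Ccl5*, 1.21 for *Ccl19*, 3.38 for *Cxcl13* and 1.07 for *Tcf7*. With single libraries left out the range was −8.23 to 0.85 for *Ccl19*, −4.74 to 0.88 for *Ccl5*, −5.58 to 1.16 for *Cd3e*, −8.07 to 0.62 for *Cd79a*, −5.95 to 1.87 for *Cxcl13* and −4.82 to 0.41 for *Tcf7*, each positive only without WT-PyMT 14, where DESeq2 gave 0.86, 0.88, 1.16, 0.63, 1.88 and 0.41. Without WT-PyMT 14 and *Lats2*-CKO 7 the values were 1.17, 1.04, 1.32, 0.75, 2.18 and 0.59 in the same order, 0.07 for *Dsc3* and 0.03 for *Flt3*. *Cdkn2a* was at −2.33 in adenomas only. The causes were not tested beyond the library named. *Lats2* kept its direction throughout, from −1.60 to −0.62 with single libraries left out. With 3 and 4 tumors whose fat, lymphocyte and muscle transcripts differ, and 1 WT-PyMT carcinoma, genotype could not be separated from histology or tissue composition for most genes called lower.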
